A study of Mus musculus with 8 samples.

Results

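The 8 genes Pdgfra, Pdgfrb, Kit, Kdr, Egfr, Met, Axl and Ddr2 encode receptor tyrosine kinases, several of which are known from fibroblasts and other mesenchymal cells. Their loci were taken by name from the mouse annotation, as the gene body with 50 kb to each side, and all 8 of the 8 names were found among 21938 protein-coding genes. The 8 windows do not overlap and cover 1459.3 kb in all. They held 106 of the 101701 regions that carried an ATAC-seq peak in any group. ATAC-seq cuts open DNA with a transposase, so a peak marks a stretch of accessible chromatin. The series compared fibroblasts of mouse embryos (MEFs), the same kind of cells at day 5 and day 10 of reprogramming by OSKM (retroviruses for OCT4, SOX2, KLF4 and MYC), and embryonic stem cells (ESCs), with 2 libraries per group.

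By the labels, the MEFs and the infected cells were Jmjd3 wildtype cells of strain C57BL/6J-OG2, which carries a GFP transgene driven by Oct4 sequence, and came from mid-gestation embryos. The infected cells also received a FLAG control vector and were switched to ESC medium with vitamin C. ESC replicate 1 is labelled C57Bl6J and ESC replicate 2 C57BL/6J-OG2. The labels describe ESC culture on mitomycin-treated MEFs with serum and LIF, whereas the study's methods describe gelatin and 2i/L medium for the ATAC-seq ESCs. The infected cells are a mixed population in which only a minority goes on to form colonies, and a peak list cannot tell accessibility in a few cells from weak accessibility in many.

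Receptor tyrosine kinases are membrane proteins that bind a ligand outside the cell, pair up and phosphorylate tyrosines inside it, which recruits adaptors and starts the RAS-MAPK and PI3K pathways. PDGFRA and PDGFRB respond to platelet-derived growth factors and are textbook receptors of mesenchymal cells. KIT is the receptor for stem cell factor, KDR for VEGF-A, EGFR for EGF and its relatives, MET for hepatocyte growth factor and AXL for GAS6, while DDR2 is unusual in being bound by fibrillar collagen. Expression was not measured in the lists used here.

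Each group had 1 list, holding peaks shared by its libraries, so there is no replicate error and no test between groups, and every difference described is between lists. A locus without a listed peak may still be accessible below the threshold of the list. The lists differed in length, with 56514 peaks for MEFs, 36219 for day 5, 35226 for day 10 and 48486 for ESCs, and the number of reads behind them is unknown. At the marker genes, the windows of the 7 fibroblast genes held 47, 27, 24 and 16 peaks in the order MEF, day 5, day 10 and ESC, with a peak over a start site at 7, 5, 3 and 3 of them. The 6 pluripotency genes held 16, 15, 19 and 53 peaks, and 2, 1, 2 and 6 of them had a start-site peak. The other markers (4 blood or macrophage, 5 endothelial, 4 epithelial genes) had start-site peaks at 0, 2 and 1 genes in MEFs and at 1, 2 and 2 in ESCs. The part that cell mixture has in the differences below was not tested, and for list length the counts were repeated with each list cut to the 35226 highest-scoring peaks.

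Peaks of the 4 lists that lay within 400 bp were merged into regions. A region with a peak in MEFs and none in ESCs is called MEF-specific, the reverse ESC-specific, one with both common, and one with a peak only at day 5 or day 10 transient. The sequences that follow are 120-base stretches of such regions, on the plus strand of GRCm38, each taken from the region with the highest fold enrichment in its own list that held a searched motif. They are shown because the MEF-specific examples carry TGACTCA or its reverse complement TGAGTCA, the letters bound by AP-1, and the ESC-specific ones of Kit and Pdgfra carry letters bound by SOX factors. Capitals mark the motif matches. The Egfr stretch, upstream of the gene at chr11:16735371-16735490, and the Met stretch, in intron 15 at chr6:17549759-17549878, hold 2 AP-1 matches each. The Kdr stretch lies upstream at chr5:75990356-75990475 and the Ddr2 stretch upstream at chr1:170136563-170136682, with 1 AP-1 match each. The Kit stretch spans an intron border of exon 11 at chr5:75640659-75640778, and the Pdgfra stretch lies downstream of the gene at chr5:75210086-75210205. A further stretch upstream of Met at chr6:17454923-17455042 was picked after its values were seen, because its region was absent from MEFs and day 5, listed at day 10 and in ESCs, and holds the octamer bound by OCT4. The Axl stretch that the rule gives lies in an untranslated part of Ccdc97 and is not printed.
Egfr, MEF-specific: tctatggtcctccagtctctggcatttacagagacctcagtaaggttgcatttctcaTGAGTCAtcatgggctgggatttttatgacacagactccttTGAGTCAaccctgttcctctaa
Met, MEF-specific: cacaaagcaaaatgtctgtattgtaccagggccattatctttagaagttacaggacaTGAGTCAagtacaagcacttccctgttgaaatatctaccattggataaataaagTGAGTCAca
Kdr, MEF-specific: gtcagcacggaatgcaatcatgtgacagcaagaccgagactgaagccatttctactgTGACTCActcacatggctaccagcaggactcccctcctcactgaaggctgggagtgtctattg
Ddr2, MEF-specific: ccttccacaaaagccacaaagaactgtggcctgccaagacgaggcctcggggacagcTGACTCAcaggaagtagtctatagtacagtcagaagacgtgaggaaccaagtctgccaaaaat
Kit, ESC-specific: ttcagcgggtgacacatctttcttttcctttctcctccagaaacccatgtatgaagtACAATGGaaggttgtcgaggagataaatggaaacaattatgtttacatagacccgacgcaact
Pdgfra, ESC-specific: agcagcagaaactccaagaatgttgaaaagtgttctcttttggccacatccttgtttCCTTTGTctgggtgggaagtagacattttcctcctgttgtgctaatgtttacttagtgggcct
Met, ESC-specific: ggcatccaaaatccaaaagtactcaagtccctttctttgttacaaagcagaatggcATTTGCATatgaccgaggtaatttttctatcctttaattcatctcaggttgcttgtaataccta

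Start-site peaks differed between lists at Axl and Kit, among others, and the bases before these starts are therefore shown. They come from the RefSeq promoter table for GRCm38.p6, in which 7 of the 8 genes were matched, and are cut where the first annotated coding transcript begins. The Axl stretch is chr7:25788734-25788983 on the minus strand and the Kit stretch chr5:75574737-75574915 on the plus strand. Capitals mark a TEAD match in Axl and a KLF match in Kit, which 7.97% and 7.72% of the 32851 promoter entries of the table also held. The Axl stretch was covered over 186 of its 250 bases in MEFs, over all 250 on both OSKM days and over 0 in ESCs. In Kit the order was the reverse, with 0 of 179 bases covered in MEFs, 73 at day 5 and all 179 at day 10 and in ESCs.
Axl promoter: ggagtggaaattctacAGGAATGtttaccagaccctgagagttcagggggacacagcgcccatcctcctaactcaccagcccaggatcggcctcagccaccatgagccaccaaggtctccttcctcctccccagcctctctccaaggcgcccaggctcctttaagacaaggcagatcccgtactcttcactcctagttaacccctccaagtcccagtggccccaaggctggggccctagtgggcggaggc
Kit promoter: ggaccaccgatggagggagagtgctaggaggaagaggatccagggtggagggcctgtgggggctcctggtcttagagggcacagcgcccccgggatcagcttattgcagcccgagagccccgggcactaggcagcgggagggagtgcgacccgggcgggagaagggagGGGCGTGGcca

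Together the 8 loci held 70 peaks in MEFs, 35 at each OSKM day and 46 in ESCs. The summed length of these peaks was 65322 bp in MEFs, 24887 and 30056 bp at the OSKM days and 36665 bp in ESCs. Per 100 kb of window this is 4.80 peaks in MEFs, 2.40 at each OSKM day and 3.15 in ESCs, against 2.07, 1.33, 1.29 and 1.78 per 100 kb of genome. The genome value includes gene-poor DNA. In the same windows of all protein-coding genes the medians were 3.46, 2.10, 2.34 and 3.12 per 100 kb. The pooled value of the 8 genes stood furthest above these medians in MEFs, but a pooled value and a median over genes are different measures. Pooled in the same way, MEF peaks per 100 kb were 3.20 at 50 other receptor genes. They were 4.03 at 23 ligand genes and 4.66 at 20 signalling genes. Among the marker lists the pooled MEF values ran from 1.85 (pluripotency) to 6.08 (epithelial). More peaks in MEFs than in ESCs were found at 6 of the 8 genes (Pdgfrb, Kdr, Egfr, Met, Axl and Ddr2) and fewer at Pdgfra and Kit. The total difference of 24 peaks was 14 without Egfr, a choice made after the values were seen, and 11 with the lists cut to equal length. Among all protein-coding genes 42.2% had more and 35.6% had fewer, and among the 6140 genes whose windows were as long as those of the 8 genes the shares were 47.0% and 37.1%. All 8 genes had fewer peaks at day 5 than in MEFs, which was so for 63.2% of all genes.

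**Figure D1:**
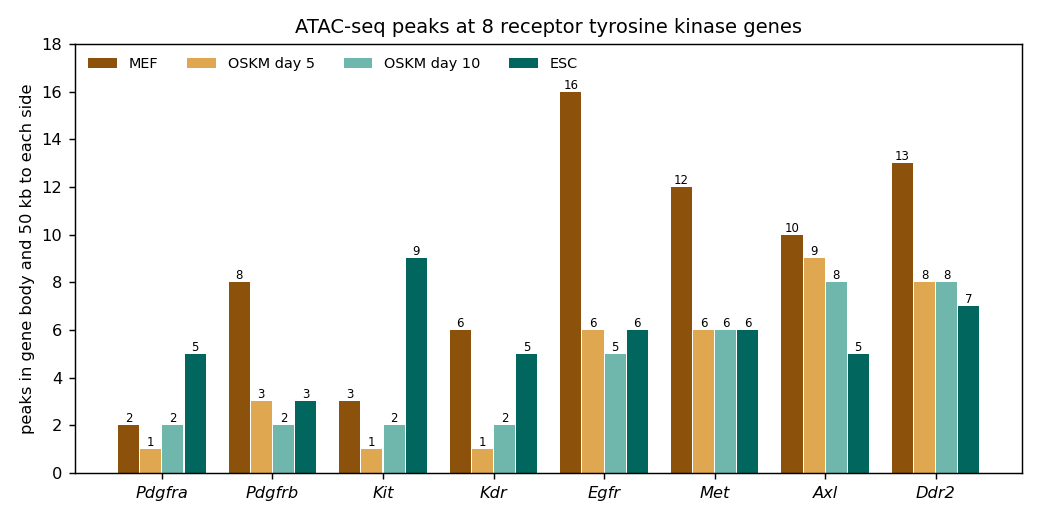
Bars give the number of listed peaks that overlap the gene body or the 50 kb to each side, for each of the 8 genes in the 4 lists (1 list per group, no error bars). Egfr, Met and Ddr2 had the most MEF peaks (16, 12 and 13), Axl had 10, 9 and 8 peaks up to day 10, and Kit had 3 peaks in MEFs and 9 in ESCs.

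**Figure D2:**
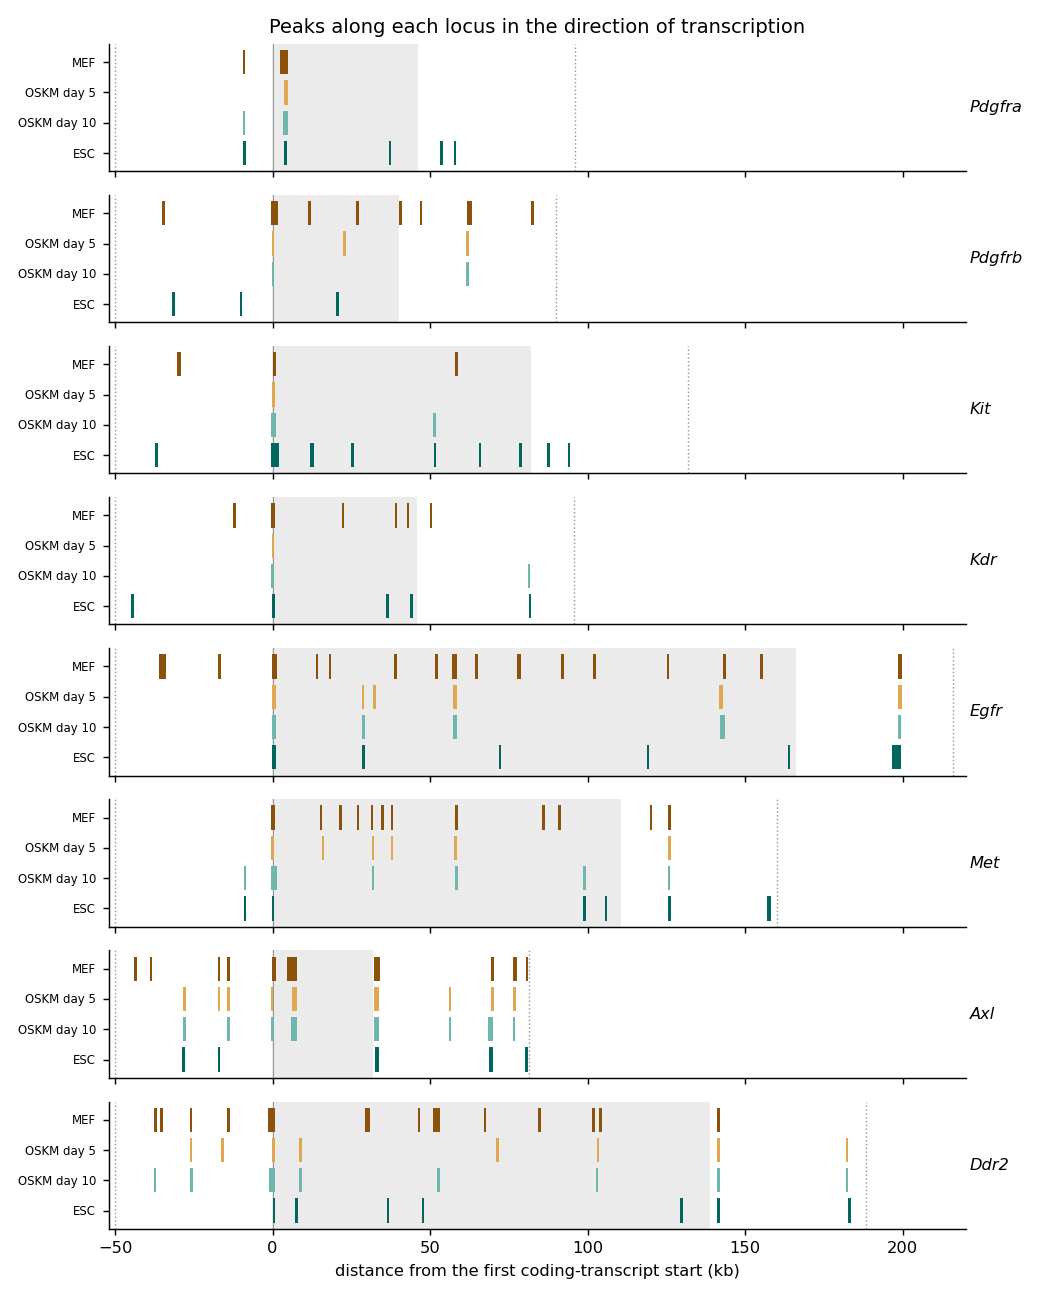
Each row is a list and each mark a peak, placed by its distance in kb from the first coding-transcript start in the direction of transcription, and the narrowest peaks are widened to stay visible. Grey shading is the gene body and dotted lines are the ends of the window. The MEF marks are spread through the bodies of Egfr, Met and Ddr2, and the ESC marks that of Kit.

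Of the PDGF receptors, Pdgfrb had more peaks in MEFs than in ESCs and Pdgfra had fewer, and both differences were small once the lists were of equal length. Pdgfrb (ENSMUSG00000024620.11, chr18:61045150-61085061, plus strand) held 8 MEF peaks, 3 and 2 on the OSKM days and 3 in ESCs. The MEF minus ESC difference of 5 was 1 with lists of equal length and 3 with flanks of 20 kb. None of its regions was common to MEFs and ESCs, since 8 were MEF-specific, 3 ESC-specific and 1 transient. The MEF peak over its start was 2319 bp wide with a fold enrichment of 2.98 and shrank to 281 bp (fold 2.62) at day 5 and 594 bp (fold 3.18) at day 10. By score it stood within the top 22.5% of the MEF list but at 98.2% of the day 5 list and 68.0% of the day 10 list, so the day 5 peak was among the weakest of its list. In ESCs the nearest peak lay 9671 bp upstream of the start. The other MEF-specific region kept at both OSKM days lay downstream inside Csf1r, the neighbouring gene for the macrophage colony-stimulating factor receptor, where the fold was 2.74 in MEFs, 4.11 at day 5 and 3.82 at day 10. Csf1r had no start-site peak in any of the 4 lists.

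Pdgfra (ENSMUSG00000029231.15, chr5:75152292-75198215, plus strand) held 2, 1, 2 and 5 peaks in the same order. The difference of -3 between MEFs and ESCs was -1 with lists of equal length and -5 with flanks of 100 kb. No list had a peak over the start of its first coding transcript. Its highest-scoring region lay in the first intron, 2320 to 3572 bp downstream of that start by list, over annotated internal starts, and was present in all 4 lists with folds of 2.77, 3.73, 3.93 and 4.08. A region upstream of the gene was listed in MEFs (fold 4.45), at day 10 (3.54) and in ESCs (3.09) but not at day 5. Pdgfra had no MEF-specific region, and its 3 ESC-specific regions, in intron 21 and downstream, had no peak at either OSKM day. The fibroblast list thus held no peak at Pdgfra that the ESC list lacked.

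Kit (ENSMUSG00000005672.12, chr5:75574916-75656722, plus strand) was the most ESC-weighted of the loci, with 3 MEF peaks, 1 and 2 on the OSKM days and 9 in ESCs. The MEF minus ESC difference of -6 stood at the 1.24 percentile of all genes and the 2.02 percentile of genes with windows of like length, with ties sharing their mean rank, and it was -5 with lists of equal length. The start-site peak was wider in each later list, by little at day 5, but its fold enrichment was lower each time. The folds were 3.70 (MEF), 3.38 (day 5), 3.03 (day 10) and 2.83 (ESC). In MEFs this peak was 871 bp wide and began 228 bp downstream of the first coding start, covering no annotated start. It covered that start at day 5 (897 bp), day 10 (1374 bp) and in ESCs (2524 bp). The strongest ESC peak, in the first intron at chr5:75599861-75600670, had a fold of 4.64 and stood within the top 4.40% of its list, and was in no other list. Of the 8 ESC-specific regions of Kit, 1 was already listed at day 10, in intron 7 at chr5:75626069-75626922, with a fold of 4.09 at day 10 and 4.22 in ESCs. The 2 MEF-specific regions, 1 upstream and 1 in intron 7, had no peak at either OSKM day.

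Kdr (ENSMUSG00000062960.10, chr5:75932827-75978458, minus strand), a gene known from endothelial cells, held 6, 1, 2 and 5 peaks. Its start-site peak was in every list, with folds of 4.78 in MEFs, 4.98 and 4.09 at the OSKM days and 3.65 in ESCs. At day 5 this was the only peak of the locus, and at day 10 the other was a weak one downstream (fold 2.78) that overlapped a region listed in ESCs. All 4 MEF-specific regions of Kdr were lost by day 5 and absent at day 10, including the upstream one with a fold of 4.44 whose AP-1 match is printed above. The MEF minus ESC difference was 1, and it was 0 with lists of equal length, 3 with flanks of 20 kb and 4 with flanks of 100 kb.

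Pdgfra, Kit and Kdr are neighbours, and across the 926.167 kb from the first window to the last there were 15 MEF peaks, 6 and 11 at the OSKM days and 27 in ESCs. This span held 10 MEF-specific, 22 ESC-specific, 5 common and 2 transient regions. The stretch between the Pdgfra and Kit windows held 3, 1, 2 and 5 peaks, and that between the Kit and Kdr windows 1, 2, 3 and 3. Within the latter lay the strongest OSKM peak of the neighbourhood, at chr5:75862015-75862770, with a fold of 6.21 at day 5. Leaving these neighbours out, the other 5 genes held 59, 32, 29 and 27 peaks, while the 3 of them held 11, 3, 6 and 19.

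**Figure D3:**
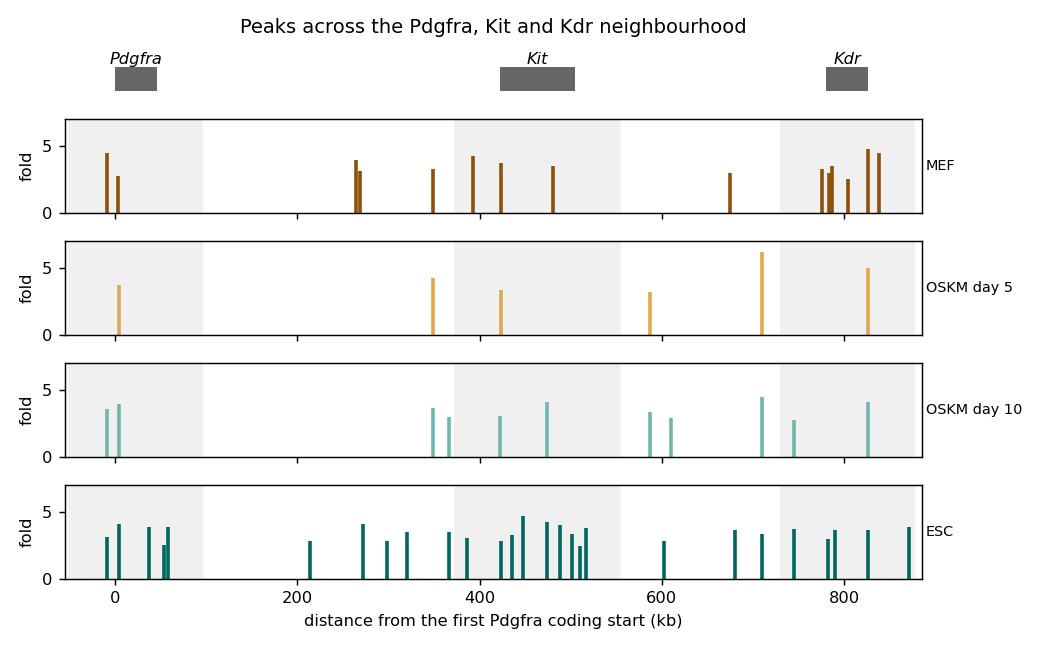
Vertical lines are peaks across the Pdgfra, Kit and Kdr neighbourhood, at their distance in kb from the first Pdgfra coding start, with the fold enrichment of the peak as height and 1 panel per list. Grey bars at the top are gene bodies and shaded stretches the windows. ESC peaks are densest over Kit (9 in its window), and the Kdr window held 6 peaks in MEFs and 1 at day 5.

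Egfr (ENSMUSG00000020122.16, chr11:16752203-16918158, plus strand) had the highest MEF count, with 16 peaks against 6 and 5 on the OSKM days and 6 in ESCs. The difference of 10 between MEFs and ESCs stood at the 99.2 percentile of all genes and the 99.6 percentile of the 6140 genes with windows of like length, and it was 6 with lists of equal length. The start-site peak was in all 4 lists, within the top 2.61% by score in MEFs (fold 4.86), 14.2% and 33.7% on the OSKM days (3.97 and 3.94) and 4.00% in ESCs (4.90). Of the 14 MEF-specific regions 12 lay in introns, 9 of them in the long first intron, and 12 of the 14 had no peak at either OSKM day. The strongest of these in the body lay 92.0 kb from the start with a fold of 4.57. The 2 regions listed on both OSKM days lay 57.8 and 143 kb into the gene, with folds of 3.12 and 2.81 at day 5 and 2.86 and 2.73 at day 10. In the latter the day 5 peak lay beside the MEF peak without overlapping it and was joined to it by the 400 bp rule. An ESC-specific region in the first intron was listed at both OSKM days at a fold of 2.76 and 2.63, with 2.63 in ESCs.

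Met (ENSMUSG00000009376.15, chr6:17463800-17573980, plus strand) held 12 peaks in MEFs and 6 in each of the other lists. Its start-site peak was in all of them, with a fold of 5.04 in MEFs, 3.52 and 3.39 at the OSKM days and 3.92 in ESCs. The 10 MEF-specific regions comprised 9 in introns, of which 7 lay in the first 4 introns, and 1 downstream that had the highest fold of all member peaks in MEFs (5.11). At day 5, 4 of the 10 had a peak, and at day 10, 2 of them did, in introns 3 and 4. In the day 5 region at chr6:17478869-17479994 the day 5 peak lay beside the MEF peak without overlapping it. Met also gained regions by day 10. The upstream region with the octamer was listed at day 10 (fold 3.49) and in ESCs (3.61), and the region in intron 19 at day 10 (2.93) and in ESCs (3.95), and neither was listed in MEFs or at day 5.

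Axl (ENSMUSG00000002602.16, chr7:25757273-25788705, minus strand) held 10 MEF peaks, 9 and 8 on the OSKM days and 5 in ESCs. Of the 10 MEF peaks, 7 were overlapped by a day 5 peak, 6 by a day 10 peak and 4 by an ESC peak. The MEF minus ESC difference of 5 was 3 with lists of equal length or with flanks of 20 kb and 1 with flanks of 100 kb. Per 100 kb these are 7.61, 6.85, 6.09 and 3.80 peaks, the highest density of the 8 genes in each list but ESCs. The widest MEF peak at any of the 8 genes, 3329 bp in intron 4, had a fold of 2.98 in MEFs, 3.28 at day 5 and 2.97 at day 10, with none in ESCs. The start-site peak was listed in MEFs (fold 2.29), at day 5 (2.88) and at day 10 (3.08), and in ESCs the nearest peak lay 16797 bp upstream. Of its 6 MEF-specific regions 4 had a peak at both OSKM days, namely those at the start, in intron 4, near Cyp2s1 upstream and over Ccdc97 downstream. The window also takes in Hnrnpul1, so many of these peaks lie at other genes. In the order MEF, day 5, day 10 and ESC, 2, 2, 2 and 1 peaks lay over Ccdc97. Over Hnrnpul1 there were 1, 1, 1 and 0, and over Cyp2s1 2, 3, 2 and 2. Over all 8 windows, 58, 24, 24 and 37 peaks (MEF, day 5, day 10, ESC) were left when peaks in the body or within 5 kb of a start of another protein-coding gene were left out.

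Ddr2 (ENSMUSG00000026674.9, chr1:169972307-170110762, minus strand) held 13, 8, 8 and 7 peaks, and the MEF minus ESC difference of 6 was 3 with lists of equal length. Its start-site peak was 2145 bp wide in MEFs (fold 3.17), 1086 bp at day 5 (3.16) and 1771 bp at day 10 (3.21). In ESCs it was 494 bp wide (fold 2.99), stood at 80.3% of its list by score and covered only 1 of the 6 annotated starts, ending 173 bp downstream of the first coding start. Of its 10 MEF-specific regions 2 were listed at day 5 and 4 at day 10, and the upstream one printed above was listed at both days, with folds of 4.69 in MEFs, 3.12 at day 5 and 3.56 at day 10. In the other region listed at both days, chr1:170006475-170009507, the OSKM peaks lay between 2 MEF peaks without overlapping either. They were joined to them by the 400 bp rule. Ddr2 also had 3 of the 6 transient regions. The strongest of them, in the first intron at chr1:170101385-170102299, had a fold of 4.94 at day 5 and 4.61 at day 10 and no peak in MEFs or ESCs.

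A peak covered an annotated start at 7 of the 8 genes in MEFs, at 8 on each OSKM day and at 6 in ESCs. Among all protein-coding genes the shares were 60.0% for MEFs, 52.1% for day 5, 56.0% for day 10 and 55.8% for ESCs. Pdgfrb and Axl had a start-site peak in MEFs but not in ESCs, a pattern of 7.75% of all genes, and Kit the reverse, a pattern of 3.54%. With peaks within 1 kb of a start counted, 8 genes had one in MEFs and 6 in ESCs. Kit then no longer differed between these lists. At day 5 an annotated start was thus covered at each of the 8 genes (at Pdgfra only internal starts), while their peaks numbered 35 against 70 in MEFs. Lists cut to equal size held 33 day 5 peaks against 45 MEF peaks. The part that list length or read depth has in the gap was not tested. The cut day 10 list held 35 and the cut ESC list 34. Day 5 start coverage was 7 genes with the cut lists, and also 7 when only peaks of −log10 q of at least 2 were kept. The median member peak stood at 64.4% of the day 5 list and 56.2% of the day 10 list by score, against 45.6% in MEFs and 46.6% in ESCs.

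The 106 regions comprised 54 MEF-specific (50.9%), 31 ESC-specific (29.2%), 15 common (14.2%) and 6 transient (5.66%) ones. Over all 101701 regions the shares were 36.4%, 28.4%, 19.1% and 16.1%, in the same order. Of the 54 MEF-specific regions 35 (64.8%) lay in the gene bodies, which make up 45.2% of the windows, and 30 of them in introns. The shares in the bodies were 58.1% of the ESC-specific, 46.7% of the common and 66.7% of the transient regions. Only 2 MEF-specific regions were at a start site, those of Pdgfrb and Axl, whereas 6 of the 15 common regions were. Gene-body shares and start-site counts are not given here for regions elsewhere. Whether these places are particular to the loci studied was therefore not tested.

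Of the 54 MEF-specific regions, 14 were listed at day 5 (25.9%, Wilson 95% interval 16.1 to 38.9%, which covers counting error only) and 14 at day 10, with 12 at both and 38 (70.4%) at neither. With only overlapping peaks merged the shares were 21.4% and 23.2%, and of the 70 MEF peaks themselves 23 were overlapped by a day 5 peak and 25 by a day 10 peak. Overlap-only values are not given here for all regions or all MEF peaks, so these have no background beside them. The shares that follow use merging within 400 bp. Over all MEF-specific regions the shares were 14.2% for day 5 and 14.8% for day 10, in the windows of all protein-coding genes 15.0% and 16.5%, and in those of 50 other receptor tyrosine kinase genes 12.3% at each day. Axl held 4 of the 14, and without it, an alternative chosen after the values were seen, the share at each day was 20.8%. Of the 31 ESC-specific regions 3 were listed at day 5 (9.68%, interval 3.35 to 24.9%) and 7 at day 10 (22.6%, 11.4 to 39.8%), while all ESC-specific regions gave 10.7% and 12.6%. The 7 were spread over Kit, Kdr, Egfr, Met, Axl and Ddr2, with 2 at Met. Of the 15 common regions 12 had a peak at each OSKM day (80.0%), and over all common regions these shares were 76.0% for day 5 and 79.9% for day 10.

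**Figure D4:**
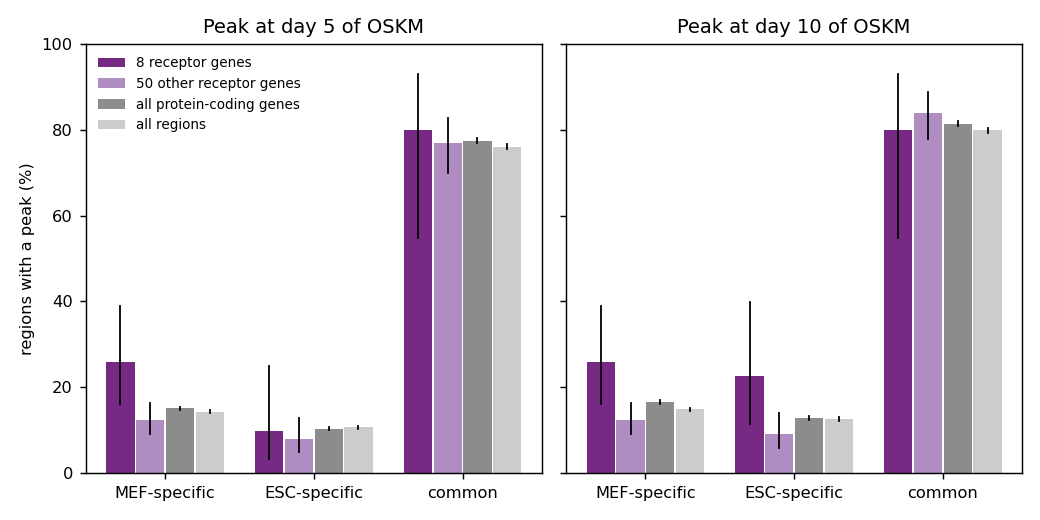
Bars give the percent of MEF-specific, ESC-specific and common regions with a peak at day 5 (left) and day 10 (right), for the windows of the 8 genes, of 50 other receptor genes, of all protein-coding genes and for all regions. Black lines are Wilson 95% intervals for counting error. At the 8 genes 25.9% of the 54 MEF-specific regions were listed at each day, above the 14.2% and 14.8% of all MEF-specific regions, and the intervals of the 31 ESC-specific regions are wide.

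For each region the central 200 bp of its widest peak were read on either strand for motif letters. AP-1 letters were in 14 of the 54 MEF-specific regions (25.9%, interval 16.1 to 38.9%), close to the 23.0% of all MEF-specific regions, and in 2 of 31 ESC-specific regions (6.45%) against 3.94% of all. The 14 regions were found at 7 of the genes, with 4 at Met and 3 at Ddr2, and Pdgfra had no MEF-specific region to search. A peak at day 5 was found for 4 of the 14 with a match (28.6%) and 10 of the 40 without it (25.0%), and the same numbers applied at day 10. Over all MEF-specific regions these day 5 shares were 11.7% with and 15.0% without a match. TEAD letters (CATTCCA and CATTCCT) were in 3 of the 54 (5.56%) against 13.9% of all MEF-specific regions, and over whole regions in 37.0% against 35.7%. RUNX letters (TGTGGTT) and KLF letters (CCACACCC and CCACGCCC) were in 2 MEF-specific regions each (3.70%), against 7.34% and 2.42% of all MEF-specific regions. SOX letters (CCATTGT and CCTTTGT) were in 6 of 31 ESC-specific regions (19.4%) against 14.5% of all. The octamer ATGCAAAT was in 1 of them, the Met region described above (3.23% against 3.18% of all).

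The same windows were counted at 50 other receptor tyrosine kinase genes, 23 ligand genes and 20 genes of the signalling steps behind the receptors. Of the other receptors 33 had more peaks in MEFs than in ESCs, 14 fewer and 3 as many, with 505, 270, 281 and 366 peaks in the list order MEF, day 5, day 10 and ESC. A start-site peak was present at 41, 30, 32 and 35 of the 50, in the same order. It was in MEFs but not in ESCs at 6 of them, and the reverse at 0. Ror2, a WNT5A receptor, had 22, 6, 8 and 6 peaks, Ror1 17, 3, 2 and 4, and Ephb2, an ephrin receptor, 15, 3, 4 and 4. Fgfr2 (105, 67, 64 and 77 peaks) and Alk (18, 8, 4 and 8) completed the 5 with the largest MEF minus ESC difference, and Fgfr2 is annotated so long that its window spans 3060.9 kb. At the other end stood Ephb1 (5 and 10 peaks in MEFs and ESCs), Epha6 (4 and 8), Erbb3 (7 and 11), the angiopoietin receptor Tek (4 and 8) and Epha10 (5 and 8), of which Epha10 tied with Erbb4, Flt4 and Ltk and was taken by the alphabet. By the summed difference in peaks per 100 kb over the 4 lists, the genes nearest to the pooled 8 were Tie1, Mertk, Fgfr2, Ephb3 and Epha1, with distances of 1.64 to 2.94 peaks per 100 kb. Mertk, a relative of Axl, had 11, 5, 3 and 7 peaks.

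**Figure D5:**
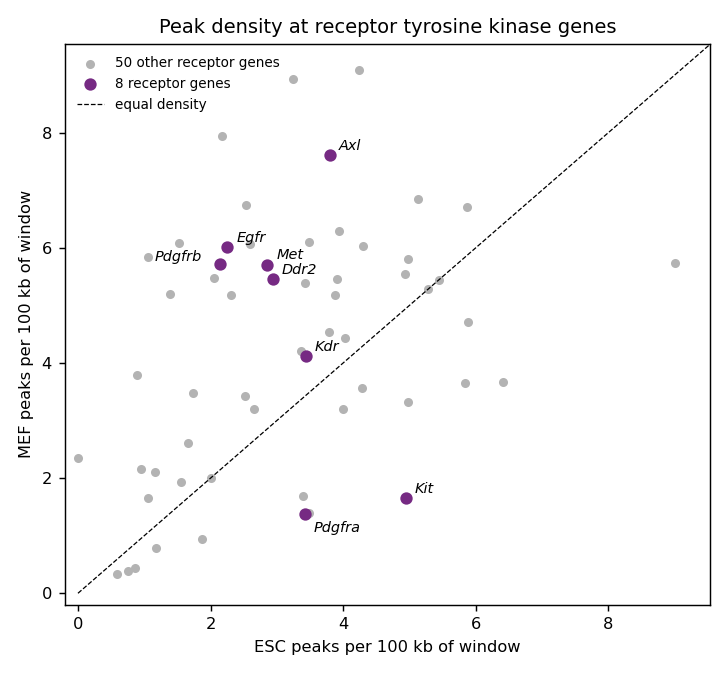
Each point is a receptor tyrosine kinase gene, with ESC peaks per 100 kb of its window on the x axis and MEF peaks per 100 kb on the y axis. The 8 genes are labelled, the 50 other receptors are grey and the dashed line is equal density. Pdgfra and Kit lie below the line, Kdr just above it and the other 5 well above it.

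Among the ligand genes 17 had more peaks in MEFs than in ESCs, 5 fewer and 1 as many, and a start-site peak was present at 21 of 23 in MEFs, 15 and 16 on the OSKM days and 14 in ESCs. Pgf, which encodes placental growth factor, had 11, 3, 2 and 3 peaks, Col1a1, the type I collagen gene and so a source of the DDR2 ligand, 10, 7, 7 and 3, and the EGF relative Btc 7, 2, 2 and 1. Kitl, which encodes the KIT ligand, had 3, 4, 5 and 7 peaks, the same direction as Kit itself. Egf (4, 2, 4 and 9) and Pros1, another ligand of AXL relatives (5, 5, 3 and 8), also had fewer in MEFs than in ESCs. The signalling genes were balanced, with 10 higher in MEFs, 9 higher in ESCs and 1 equal, and start-site peaks at 20, 18, 19 and 19 of 20. Lrig1, a negative regulator of EGFR, had 13, 5, 5 and 8 peaks, and the ubiquitin ligase gene Cbl 8, 5, 7 and 4. At the other end were the feedback inhibitor Spry2 with 4, 4, 5 and 7 peaks, the PI3K subunit gene Pik3r1 with 7, 4, 5 and 9, and the phospholipase gene Plcg1 with 1, 6, 6 and 3. By the alphabet, Cbl was taken ahead of Pik3ca, and Pik3r1 and Plcg1 ahead of Ptpn11 and Spry4, which had equal differences.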

How the data were processed

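ATAC-seq libraries of 4 groups (2 per group, 8 in all) were used as 4 peak lists, 1 per group. Per the labels and methods, the authors mapped reads to mm10 with Bowtie2 (2.2.0 in the submitters' processing notes) in its very sensitive mode and kept uniquely mapped nuclear reads; the peak caller is not given in the sources used here. Each deposited list holds a score (10 times the −log10 q-value), a fold enrichment (ratio over background), a −log10 p-value and a −log10 q-value per peak. The deposited peak names are those of replicate 1, so these values describe replicate 1 peaks, and they were used only to describe and rank peaks within a list. Read depth is unknown, and the lowest −log10 q-value was 1.01 to 1.02 in every list.

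Peaks were counted with Python 3.11.15, pandas 2.3.3 and pysam 0.24.0 in gene bodies plus 50 kb to each side (GENCODE mouse release M21, GRCm38), with an overlap of at least 1 bp. A start site is that of any annotated transcript. Intron numbers follow the coding transcript with the most exons, and distances run to the middle of a region. No test was made between groups, because each is 1 list. The counting and merging steps were tested on simulated intervals. The 8 genes and all gene lists were chosen with earlier results of these data known. Named besides the 8 genes were genes that start in their windows, the 5 receptors with the largest and smallest MEF minus ESC count and the 5 nearest in peak density, and 3 ligands and 3 signalling genes at each end. 1 signalling gene that this rule names is not reported here. Sequences of Pdgfrb are not shown. Alternatives were other windows (20 and 100 kb), merging distances (0 and 1000 bp), peaks of −log10 q of at least 2, lists cut to 35226 peaks, midpoints, stricter and looser start sites, peaks away from other genes, and genes left out.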

Additional observations from a re-analysis of the deposited data

How the results depend on the processing

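For the totals over the 8 genes, 87 of 97 alternative values stayed within a factor of 1.5 of the reported ones and 10 moved. Most of these values are counts or shares, which have no direction, and the total MEF minus ESC difference kept its sign. For the differences at single genes 35 of 48 stayed, 13 moved and none reversed, although the Kdr difference came to 0 with lists of equal length. With each list cut to its 35226 highest-scoring peaks, the MEF peaks fell to 45, the MEF minus ESC difference was 11, and 9 common and 12 transient regions were found. With 100 kb flanks there were 53 peaks at day 10, 70 in ESCs and 25 common regions. Without Pdgfra, Kit and Kdr, 27 ESC peaks were left, and without Egfr, an alternative chosen after the data were seen, the MEF minus ESC difference was 14. Searching whole regions, 59.3% of MEF-specific member regions held AP-1 letters, against 47.0% of all MEF-specific regions. Without peaks at other protein-coding genes the difference was 21. No paired analysis was possible because the peaks of both libraries were deposited as 1 list per group, and leaving out a replicate was not run for the same reason. Peak counts depend on read depth, which is unknown.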
